A study of Mus musculus with 22 samples.

Results

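The 7 genes that encode the subunits of the N-methyl-D-aspartate (NMDA) receptor, namely Grin1, Grin2a, Grin2b, Grin2c, Grin2d, Grin3a and Grin3b, were examined in mRNAseq libraries of neuronal and glial nuclei. They were chosen by name from the 53379 genes of the deposited count table, with Ensembl identifiers matched to GENCODE symbols, and all 7 were found and passed the filter on low counts. Adult male C57/BL6N mice received an intracortical injection of kainate above the right hippocampus, or of 0.9% NaCl in the sham group, and the left (contralateral) hippocampi were taken 24 h later. Kainate is an agonist of ionotropic glutamate receptors that elicits status epilepticus, and only kainate mice with convulsive seizures were kept. The 8 mice of each treatment were pooled into 3 samples of 4 or 2 mice. Flow cytometry then separated the nuclei by staining for NeuN, a nuclear protein of most neurons. NeuN+ nuclei are called neurons and NeuN– nuclei glia, as in the study. This gave 3 kainate NeuN+, 3 sham NeuN+, 3 kainate NeuN– and 2 sham NeuN– libraries, since sample preparation failed for sham NeuN– replicate 2. A replicate is therefore a pool of mice, and both fractions of a pool hold the same animals.

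NMDA receptors are glutamate-gated cation channels built from 4 subunits. Receptors of GluN1 and GluN2 subunits need glycine or D-serine on the obligatory GluN1 together with glutamate on GluN2. At rest their pore is blocked by magnesium, so that calcium enters when transmitter and depolarisation coincide. In the hippocampus these receptors are known for their part in synaptic plasticity and, when overactive, in excitotoxicity and seizures.

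Grin1, which encodes the obligatory GluN1 subunit, lies on the minus strand of chr2:25291181-25319187 (build mm10, GENCODE M21 annotation, identifier ENSMUSG00000026959). Grin2a (chr16:9567898-9995560, minus strand) encodes GluN2A, the glutamate-binding subunit that prevails at mature forebrain synapses. Grin2b (chr6:135713233-136173511, minus strand) encodes GluN2B, which dominates early in development and gives slower currents. Grin2c (chr11:115249169-115267243, minus strand) encodes GluN2C, best known from cerebellar granule cells and also found in astrocytes. Grin2d (chr7:45831883-45878378, minus strand) encodes GluN2D, in the adult forebrain known mainly from interneurons. Grin3a (chr4:49661611-49845744, minus strand) and Grin3b (chr10:79970715-79977190, plus strand) encode the glycine-binding GluN3 subunits, which lower calcium permeability. Exons of Grin1 share 1307 bases with the antisense gene Grin1os, those of Grin3b share 1059 with Tmem259, and those of Grin2d share 643 with Gm45441. The strand setting of the counting was not stated, so reads in these stretches cannot be assigned with certainty.

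The libraries held 12058875 to 45428465 counted reads. The libraries of sham NeuN– replicate 1 and kainate NeuN– replicate 2 were made from 0.05 ng of RNA with 15 cycles of amplification, against 1 ng and 10 cycles in the other 9. Over the libraries together, all 10 neuron markers were higher in NeuN+ nuclei. All 8 astrocyte, 8 oligodendrocyte, 8 oligodendrocyte precursor and 8 microglia markers were higher in NeuN– nuclei. The separation of astrocyte markers was weaker in kainate replicate 3 than in kainate replicate 1. NeuN+ minus NeuN– in log2 CPM was -0.76 against -3.52 for Aldh1l1 and -1.14 against -4.42 for Gfap. Slc1a2, alone among the astrocyte markers, was higher in NeuN+ in kainate replicate 3 (0.81, against -1.82 in kainate replicate 1). The glial fraction still held neuronal transcripts: the summed level of the neuron markers was 699 to 1065 CPM (the usual scaling of counts to library size, here with TMM factors) in NeuN– libraries and 3915 to 9297 CPM in NeuN+ libraries. No marker of these lists was at 0 in any library. Libraries of the same replicate number deviated together from their group means, and the labels do not say what the number marks besides the pool. Replicate 1 libraries had 37097 to 41862 genes detected, and those of replicates 2 and 3 had 45603 to 50017. The study sequenced its mRNA libraries on either a NextSeq or a HiSeq instrument, and the instrument of each library was not examined here.

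In these libraries 4 of the subunit genes were higher in neurons and Grin2c was higher in glia. Grin1 had 892, 668 and 508 CPM in kainate NeuN+ replicates 1, 2 and 3 and 885, 740 and 578 CPM in the sham ones. In NeuN– nuclei Grin1 had 44.5, 78.5 and 77.5 CPM after kainate and 46.8 and 55.7 CPM in sham replicates 1 and 3. The lowest NeuN+ library thus stood far above the highest NeuN– library. Grin2a ranged from 498 to 935 CPM over the 6 NeuN+ libraries and from 18.9 to 111 CPM over the 5 NeuN– libraries. Grin2b ranged from 284 to 521 CPM and from 18.4 to 70.8 CPM, and Grin2d from 23.3 to 39.6 CPM and from 9.72 to 16.1 CPM. For Grin1, Grin2a, Grin2b and Grin2d the fractions did not overlap, which held for 15.2% of all genes tested in either direction.

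**Figure D1:**
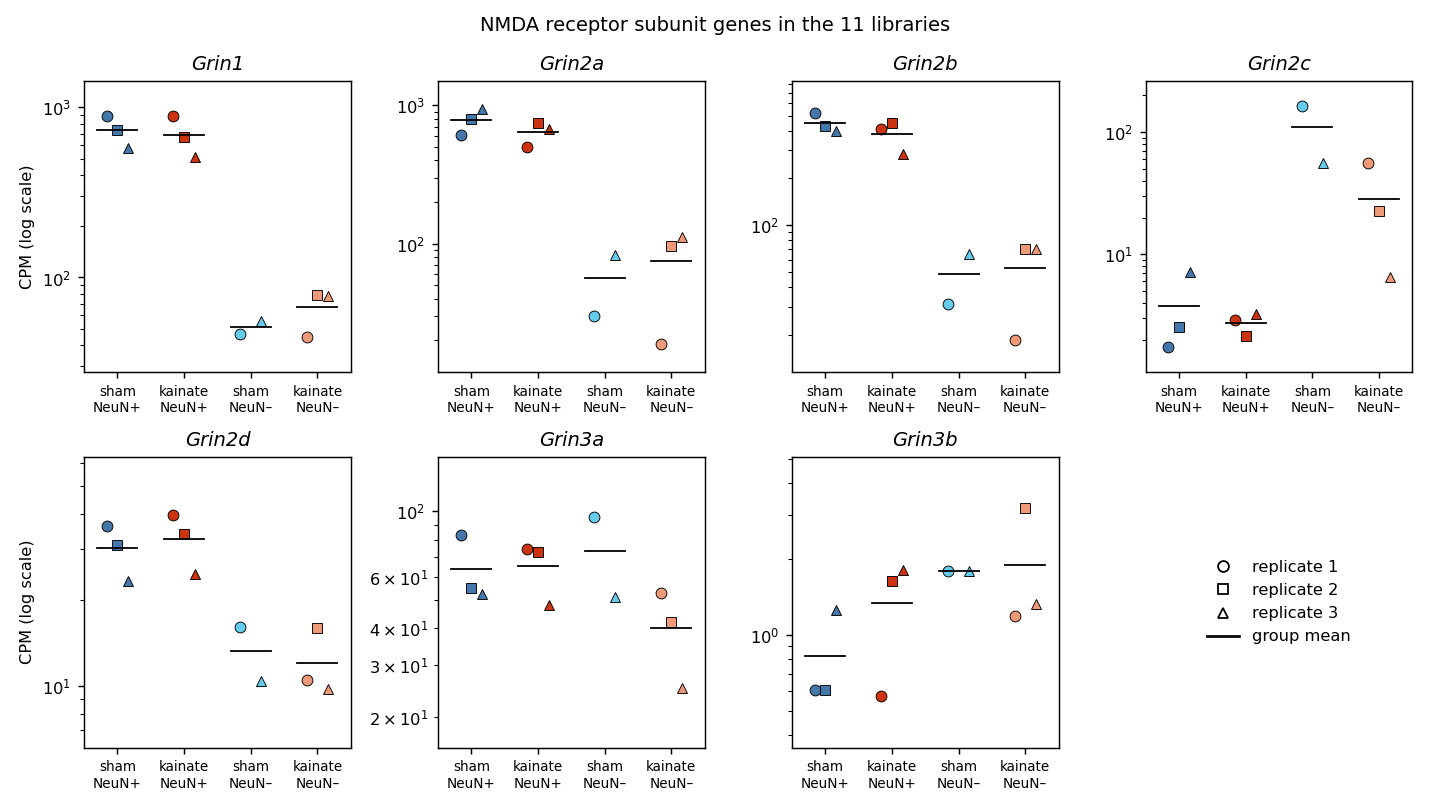
CPM of each subunit gene (log axis, 1 panel a gene) in the 11 libraries, by treatment and fraction; symbols give the replicate number and the line the group mean. Grin1, Grin2a, Grin2b and Grin2d stand higher in all NeuN+ libraries than in any NeuN– library, and Grin2c runs the other way, with 163 CPM in sham NeuN– replicate 1.

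Grin2c had 1.75, 2.53 and 7.12 CPM in the sham NeuN+ libraries and 2.92, 2.14 and 3.24 CPM in the kainate ones. In NeuN– nuclei it reached 163 and 56.1 CPM in sham replicates 1 and 3, and 56.1, 22.8 and 6.49 CPM after kainate. Kainate NeuN– replicate 3 was below sham NeuN+ replicate 3, and the fractions of Grin2c overlapped at that pair of libraries alone. Grin3a was spread across both fractions, with 48.0 to 83.2 CPM in NeuN+ and 25.1 to 95.9 CPM in NeuN– libraries. Grin3b was the scarcest, with 0.569 to 1.80 CPM in NeuN+ and 1.19 to 3.19 CPM in NeuN– libraries, and rested on 8 to 94 reads a library.

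The comparison of NeuN+ with NeuN– nuclei, over both treatments, called 5 of the 7 subunit genes at an FDR below 0.25, the study's threshold, where 37.2% of all genes tested were called (edgeR's quasi-likelihood test with Benjamini-Hochberg adjustment). Grin1 was higher in neurons by a log2 fold change of 3.60 (SE 0.33, FDR = 3.3e-05). Grin2a followed at 3.44 (SE 0.48, FDR = 0.00017) and Grin2b at 3.02 (SE 0.40, FDR = 0.00012). Grin2d was higher in neurons by 1.32 (SE 0.27, FDR = 0.0032). Grin2c was lower in neurons, with a log2 fold change of -4.10 (SE 0.55, FDR = 0.00012). These values can be read against those of the markers, 1.76 to 3.59 with a median of 2.60 for the 10 neuron markers and a median of -4.08 for the 8 astrocyte markers. In sorted nuclei of mixed cell types, fewer cells of a type and less RNA per cell cannot be told apart.

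**Figure D2:**
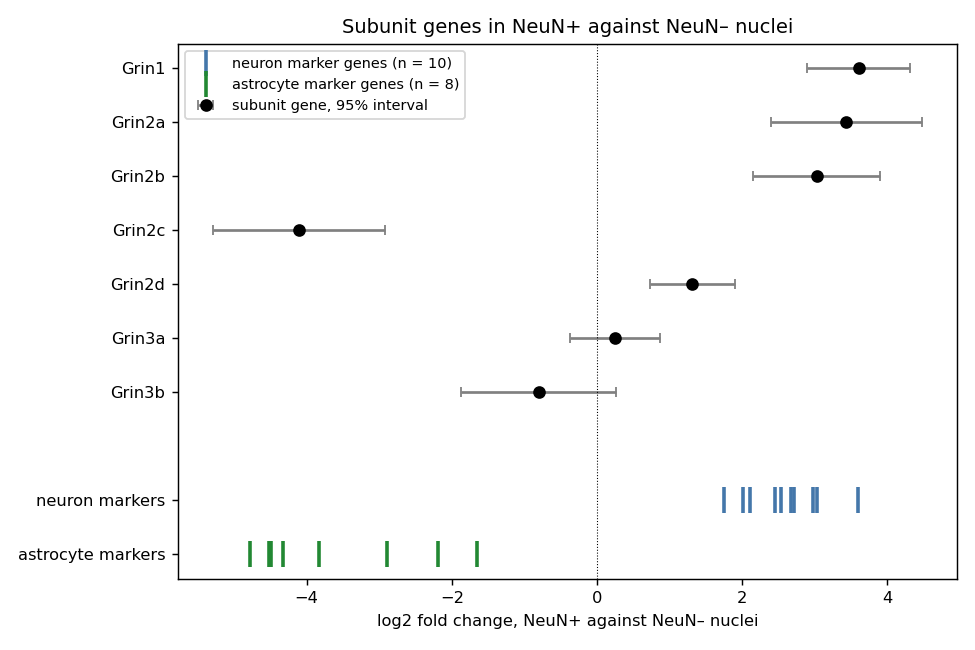
log2 fold change of NeuN+ against NeuN– nuclei with its 95% interval for the 7 subunit genes, above the values of 10 neuron and 8 astrocyte markers (ticks). Grin1, Grin2a and Grin2b lie among or above the neuron markers, Grin2d lies below them at 1.32, and Grin2c lies among the astrocyte markers at -4.10.

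Neither GluN3 gene passed in this fit. Grin3a had a log2 fold change of 0.24 (SE 0.29, FDR = 0.57) and Grin3b of -0.80 (SE 0.50, FDR = 0.30). With the pool of mice as a block, 59.7% of all genes were called and both GluN3 genes passed, Grin3a at 0.33 (FDR = 0.13) and Grin3b at -0.74 (FDR = 0.19). With the replicate number as a block, where 57.4% were called, they passed at 0.25 (FDR = 0.18) and -1.06 (FDR = 0.022). The fraction difference of Grin3a was 0.70 (FDR = 0.34) in kainate libraries alone, where 20.7% of all genes were called, and -0.21 (FDR = 0.86) in sham libraries alone, where 16.7% were called. With the replicate block Grin3a passed in kainate libraries, at 0.75 (FDR = 0.0013, with 53.2% of all genes called), and in sham libraries had -0.24 (FDR = 0.55, with 35.9% called). Grin3b had -0.50 (FDR = 0.68) in kainate and -1.11 (FDR = 0.53) in sham libraries, and with the block it passed in sham libraries, at -1.67 (FDR = 0.033), and had -0.46 (FDR = 0.50) in kainate libraries.

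The stretches of 250 bases before the start sites of Grin1 and Grin2c are shown because these genes stood at opposite ends of the fraction comparison. They are from RefSeq (GRCm38.p6), which covers 4 of the 7 genes in the table used, with Grin2d and Grin3b the other two. Both strands were searched for GGGCGG (the GC box), CACGTG (an E-box) and TGACGT (the start of the cyclic AMP response element), motifs picked after the values were seen, and matches are in capitals.
Grin1, chr2:25319188-25319437, minus strand: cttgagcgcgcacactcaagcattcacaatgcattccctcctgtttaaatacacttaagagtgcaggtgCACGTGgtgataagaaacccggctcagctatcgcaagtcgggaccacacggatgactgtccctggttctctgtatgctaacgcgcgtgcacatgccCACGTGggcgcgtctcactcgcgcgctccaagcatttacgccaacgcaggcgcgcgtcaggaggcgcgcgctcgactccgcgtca
Grin2c, chr11:115267244-115267493, minus strand: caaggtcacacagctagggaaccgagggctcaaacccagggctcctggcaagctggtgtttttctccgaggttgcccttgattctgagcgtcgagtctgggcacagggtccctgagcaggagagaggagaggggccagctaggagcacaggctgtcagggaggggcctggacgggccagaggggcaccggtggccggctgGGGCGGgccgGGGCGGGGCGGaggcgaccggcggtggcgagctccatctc
The Grin1 stretch held 2 E-boxes, a motif found in 6.02% of the 32817 promoter stretches of this length. The Grin2c stretch held 3 GC boxes, 2 of which share a base, and 32.7% of all stretches held at least 1. TGACGT was in neither, against 6.46% of all stretches, and the windows of Grin2d and Grin3b held none of these motifs. GC made up 58.8% of the Grin1 and 68.8% of the Grin2c stretch, with a median of 52.4% over all stretches. A match in letters is a description and not evidence of binding.

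Levels of different genes were compared per kilobase of exon. In sham neurons the order of the mean levels was Grin1 (75.7 ± 15.9 CPM per kb, SD, n = 3), Grin2a (43.5 ± 9.13), Grin2b (18.1 ± 2.59), Grin3a (5.17 ± 1.40), Grin2d (4.55 ± 0.98), Grin2c (0.75 ± 0.58) and Grin3b (0.25 ± 0.11). Every library of Grin1 was above every library of Grin2a, and the same held between Grin2a and Grin2b, Grin2b and Grin3a, and Grin2d and Grin2c. Grin3a and Grin2d overlapped, as did Grin2c and Grin3b. Kainate neurons had the same order and the same overlaps, from 71.1 ± 19.9 CPM per kb for Grin1 to 0.40 ± 0.20 for Grin3b (n = 3).

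In sham glia Grin2c led with 32.4 and 11.1 CPM per kb in the 2 libraries. Grin3a came next with 7.81 and 4.16, then Grin1 with 4.83 and 5.74, which overlapped with Grin3a. In kainate glia Grin1 led with 4.59 to 8.09 CPM per kb, and Grin2c followed with 11.1, 4.53 and 1.29 in replicates 1, 2 and 3. There every gene from Grin1 down to Grin2d overlapped with its neighbour in the order. The neuron markers summed to 699 to 1065 CPM in NeuN– libraries, and the part of neuronal transcripts in these glial levels was not tested. The longest protein-coding transcript was also used as the length, a choice added after the values were seen. With it the level of Grin1 in sham neurons was 172 CPM per kb, and the neuronal order was as given. The glial order changed. In sham glia Grin2c and Grin1 overlapped at means of 22.4 and 11.99, and Grin1 stood above Grin3a (9.81). In kainate glia the mean of Grin3a (5.34) was above that of Grin2a (5.15), and that of Grin2d above that of Grin2b.

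Among the 4 GluN2 genes, summed per kilobase, Grin2a supplied 54.5 to 71.4% and Grin2b 21.4 to 34.5% in the 6 NeuN+ libraries. Grin2d supplied 4.80 to 11.7% and Grin2c 0.571 to 1.94% there. In sham glia Grin2c made up 55.9 and 85.8%, and in kainate glia 10.9 to 76.8%. These shares are of transcripts and say nothing of assembled receptors. The part of neuronal transcripts and of the cell mixture in the glial shares was not tested.

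In neurons, no subunit gene passed the comparison of kainate with sham, where 67 of 40714 genes tested were called, or 0.165% (edgeR's quasi-likelihood test with Benjamini-Hochberg adjustment, FDR below 0.25). The 7 log2 fold changes lay between -0.48 for Grin2c and 0.70 for Grin3b, with a median of -0.09 against -0.015 over all genes tested. None of the 7 had an unadjusted p under 0.05, against 2.09% of all genes, and DESeq2's Wald test called none of the 6 for which it gave an adjusted p. The groups overlapped for each of the 7, whereas 7.86% of all genes had groups fully apart.

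The precision of this comparison differed among the genes. For Grin1 the log2 fold change was -0.09 with a 95% interval from -0.90 to 0.72. For Grin2a it was -0.29 (-1.49 to 0.91) and for Grin2b -0.23 (-1.26 to 0.79). With the replicate number as a block, where 5.09% of all genes were called in neurons, again none of the 7 passed, and the intervals narrowed to -0.46 to 0.24 for Grin1, -0.66 to 0.08 for Grin2a and -0.62 to 0.12 for Grin2b. Grin2d had 0.11 (SE 0.35) and Grin3a 0.04 (SE 0.38) in the fit of group means.

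The ratio of Grin2b to Grin2a reads, which scaling cannot affect, was examined because GluN2B gives way to GluN2A as synapses mature. In kainate neurons the ratio was 0.831, 0.603 and 0.420 in replicates 1, 2 and 3, and in sham neurons 0.855, 0.537 and 0.424. Kainate and sham pools of the same number lay close together, and the spread between numbers was wider than that between treatments. On the log2 scale kainate minus sham was 0.04, with group means of -0.75 ± 0.49 and -0.79 ± 0.51 (SD, n = 3; exact permutation test, two-sided, p = 1.00, where 3 against 3 cannot go below 0.10). Its direction turned without kainate replicate 1 (-0.20), sham replicate 2 (-0.018) or sham replicate 3 (-0.19). Grin2a was lowest and Grin1 highest in replicate 1 in both treatments.

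In glia the ratio was 0.974, 0.734 and 0.638 after kainate and 1.05 and 0.790 in sham replicates 1 and 3. Each glial library had a higher ratio than the neuronal library of its pool. Kainate minus sham was -0.24 on the log2 scale (exact permutation test, two-sided, p = 0.40, with 0.10 the smallest p possible for 3 against 2). It was -0.45 without sham NeuN– replicate 3, -0.04 without sham NeuN– replicate 1 and -0.0038 without both libraries of low RNA input.

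**Figure D3:**
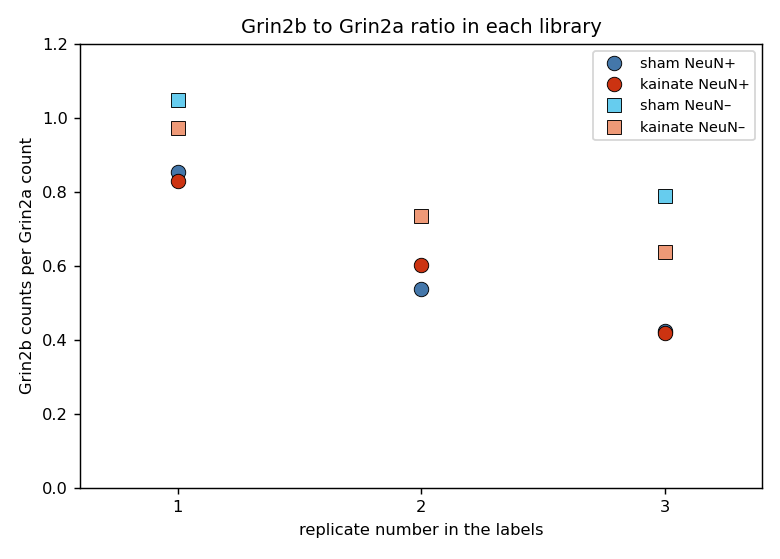
Grin2b reads per Grin2a read in each library, by replicate number; circles are NeuN+ and squares NeuN– libraries. Kainate and sham points of the same number lie close together in neurons (0.831 and 0.855, 0.603 and 0.537, 0.420 and 0.424), and the numbers differ more than the treatments.

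In glia, no subunit gene passed the comparison of 4 group means, where 41 genes or 0.101% were called. Grin2c and Grin3a were the lowest of the 7. Grin2c had a log2 fold change of -1.95 (SE 0.74, 95% interval -3.54 to -0.36), with an unadjusted edgeR p of 0.020 and an FDR of 1.00; of all genes tested 2.05% had an unadjusted p under 0.05. Grin3a had -0.88 (SE 0.42, FDR = 1.00). Grin1 (0.38, SE 0.43), Grin2a (0.42, SE 0.63), Grin2b (0.14, SE 0.54), Grin2d (-0.14, SE 0.39) and Grin3b (0.09, SE 0.74) differed by less than their standard errors.

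Grin2c was the subunit whose kainate and sham glia were apart in every library, though only just, since kainate replicate 1 had 56.07 and sham replicate 3 had 56.13 CPM. Groups apart in every library were seen for 8.22% of all genes, and with kainate lower for 3.52%. The other 6 overlapped, among them Grin3a with 52.8, 42.1 and 25.1 CPM after kainate and 95.9 and 51.1 CPM in sham replicates 1 and 3.

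With the replicate number as a block, where 5.79% of all genes were called in glia, Grin2c and Grin3a fell. Grin2c had a log2 fold change of -2.31 (SE 0.31, FDR = 5.3e-07) and Grin3a of -0.94 (SE 0.23, FDR = 0.010), relative to a median of 0.11 over all genes in that fit. DESeq2's Wald test with the block, where 9.08% of all genes were called, also called Grin2c and Grin3a, at -2.39 and -1.02. In glia only replicates 1 and 3 had both treatments: kainate minus sham in log2 CPM was -1.54 and -3.10 for Grin2c and -0.86 and -1.02 for Grin3a. The sham library of the first of these pairs was of low RNA input, so RNA input and treatment cannot be told apart there. The blocked fit had 3 residual degrees of freedom and borrowed most of its estimate of spread from other genes.

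Single libraries weighed on these values. Without sham NeuN– replicate 3 the fit of group means called Grin2c, at -2.53 (FDR = 0.24), and with it 6.59% of all genes. Without sham NeuN– replicate 1, a library of low RNA input, its value was -0.95 (FDR = 0.98) and that of Grin3a -0.33. Without kainate NeuN– replicate 1 the value of Grin2c was -3.01 (FDR = 0.74). Without both libraries of low input these values were -0.82 and -0.37. In the blocked fit, Grin2c was -1.54 without kainate NeuN– replicate 3 (FDR = 0.039) and -3.11 without sham NeuN– replicate 1 (FDR = 2.2e-08). The blocked fit called both genes in glia with any single library left out, but without replicate 1 or 3 of either glial group it rested on a single kainate and sham pair, with the spread taken from the other libraries and genes.

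**Figure D4:**
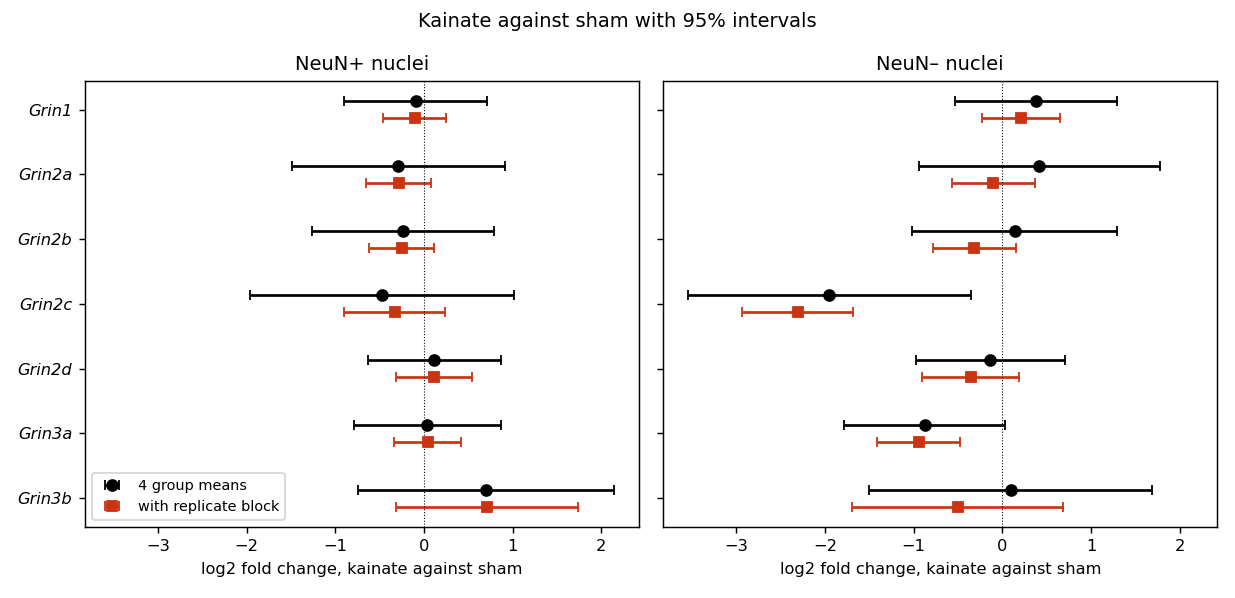
log2 fold change of kainate against sham with 95% intervals for the 7 subunit genes in neurons (left) and glia (right), from the fit of 4 group means (circles) and with the replicate number as a block (squares). Only Grin2c in glia has both intervals below 0, and for Grin3a in glia the blocked interval alone (-1.41 to -0.48) lies below 0.

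Most glial markers also had values below 0 in glia among group means, though 3 of the 8 astrocyte markers lay above 0. The summed level of the 8 astrocyte markers was 3696, 1844 and 712 CPM in kainate NeuN– replicates 1, 2 and 3, and 4931 and 1294 CPM in sham replicates 1 and 3. Their median log2 fold change in glia was -0.92. No astrocyte, oligodendrocyte, oligodendrocyte precursor or microglia marker was called in glia among group means. With the block, 5 of the 8 astrocyte markers were lower and 1 higher, Gfap at 1.77. In that fit 2.86% of all genes were called lower and 2.93% higher. Gfap encodes the intermediate filament that reactive astrocytes make in excess. The 5 lower markers were Gja1 (-1.66) and Gjb6 (-1.57), which encode connexins of astrocyte gap junctions, the glutamate transporter genes Slc1a2 (-1.12) and Slc1a3 (-1.21), and the receptor gene Fgfr3 (-0.99). Grin2c, at -2.31, lay below each of them.

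Per 1000 CPM of the summed astrocyte markers, a ratio formed after the values were seen, Grin2c had 15.2, 12.4 and 9.12 CPM after kainate and 33.1 and 43.4 CPM in sham glia, and the groups did not overlap. That sum contains Gfap and Aqp4, which were above 0 in both same-numbered pairs. Markers of oligodendrocyte precursors, the dividing cells of the oligodendrocyte lineage, had a median of -0.77. With the block, where 2.86% of all genes were called lower, 6 of the 8 were lower. The level of Grin3a per 1000 CPM of their sum was 17.9, 24.96 and 34.4 after kainate and 19.3 and 33.1 in sham glia, so these groups overlapped. Of the 8 oligodendrocyte markers 4 were lower with the block, and of the 8 microglia markers 2. Of the 10 neuron markers 2 were lower in glia with the block, with a median of -0.14. The part of the cell mixture in the values of Grin2c and Grin3a was not tested.

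**Figure D5:**
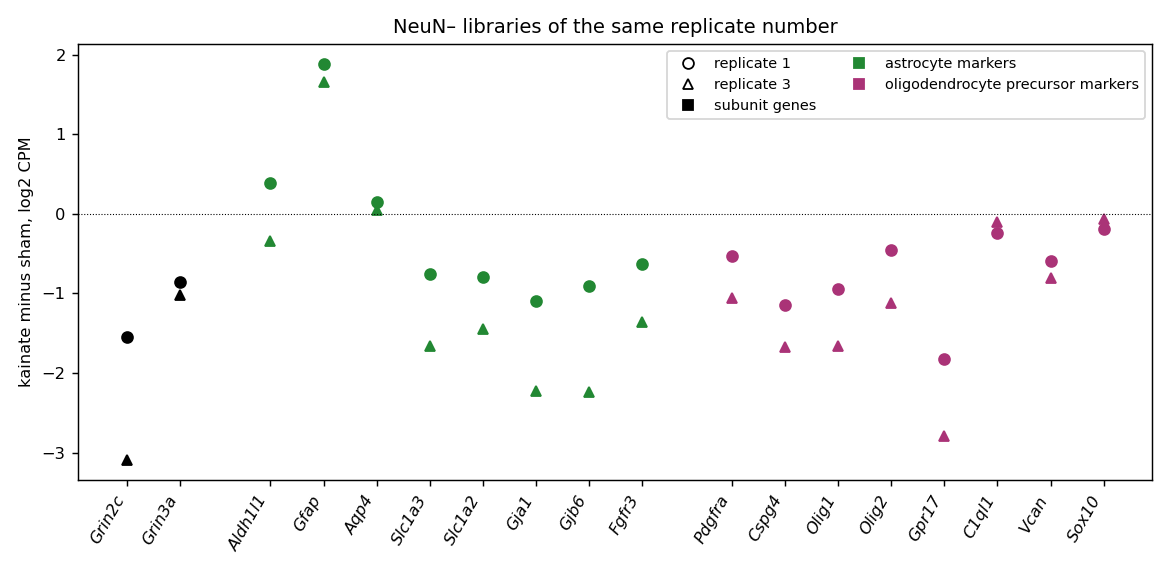
Kainate minus sham in log2 CPM between NeuN– libraries of the same replicate number (circle, replicate 1; triangle, replicate 3) for Grin2c and Grin3a, the 8 astrocyte and the 8 oligodendrocyte precursor markers. Grin2c is at -1.54 and -3.10, Grin3a at -0.86 and -1.02, and most markers are below 0 in both pairs, with Gfap and Aqp4 above 0 in both.

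The kainate effect was also compared between the fractions, by the difference of the effect in neurons and that in glia. None of the 7 passed among 4 group means, where 1 gene or 0.00246% was called; Grin2c had 1.47 (SE 1.02, FDR = 1.00) and Grin3a 0.91 (SE 0.57, FDR = 1.00). With the replicate block, where 1.94% were called, Grin2c passed at 1.98 (SE 0.42, FDR = 0.0047) and Grin3a at 0.99 (SE 0.30, FDR = 0.13). In the same blocked test 5 of the 8 astrocyte markers were called higher (median 1.06) and 3 of the 8 oligodendrocyte precursor markers (median 0.72), and their part in the values of Grin2c and Grin3a was not tested. In neurons the blocked values were -0.33 for Grin2c and 0.04 for Grin3a. Without kainate NeuN– replicate 3 the blocked difference of Grin2c was 1.18 (FDR = 0.28), and that of Grin3a did not pass without any one of the replicates 1 and 3 in glia. The other 5 genes did not pass in either fit.

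Genes around the receptor were taken from 4 lists of 74 genes in all: postsynaptic scaffolds, trafficking and receptor partners, downstream calcium signalling, and supply and removal of the agonists. In neurons none of the 74 passed among 4 group means. The nearest was Homer1, a scaffold gene with an activity-induced short form, with 650, 566 and 280 CPM after kainate and 200, 141 and 148 CPM in sham neurons. Its groups did not overlap, and its log2 fold change was 1.61 (SE 0.40, FDR = 0.39); DESeq2's Wald test called it (FDR = 0.0039). The median over the 74 genes was -0.0048 against -0.015 over all genes.

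With the block, 20 of the 74 passed in neurons, 9 higher and 11 lower, where 3.19% of all genes were called higher and 1.9% lower. Without kainate or sham NeuN+ replicate 3, 4 passed in either case, where 1.92% and 1.95% of all genes were called. Among the 16 scaffolds 3 were higher, namely Homer1 (1.54), Dlgap4 (0.71) and Dlgap3 (0.68), which encode proteins linking the receptor complex to the Shank scaffold. Of the 18 trafficking genes and partners 2 were higher and 2 lower, the higher ones being Ptpn5 (0.77), the phosphatase STEP that acts on GluN2B, and the adaptor gene Apba1 (0.56), with the anchoring protein gene Akap5 (-0.69) among the lower. Of the 20 calcium signalling genes 5 were lower and 1 higher, the lower ones including Camk2a (-0.80) and Camkk2 (-0.74), which encode calmodulin-dependent kinases, and Dapk1 (-0.65). Of the 20 agonist genes 3 were higher and 4 lower, and Shmt1 (-1.04), which interconverts serine and glycine, had 8.61, 6.52 and 5.40 CPM after kainate and 12.4, 17.1 and 12.1 CPM in sham neurons. Slc7a10 (-0.87) and Phgdh (-0.72) were also lower. Of the 8 astrocyte markers 4 were higher and 2 lower in the NeuN+ libraries with the block, and Slc1a2 and Slc1a3 stand in both lists. Of the 10 neuron markers, which include Camk2a, 2 were lower, and of 8 inhibitory neuron markers 2 were higher. The part of the cell mixture in these counts was not tested.

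In glia none of the 74 passed among 4 group means, with a median of -0.08 against 0.02 over all genes. With the block 12 passed, 3 higher and 9 lower, where 2.93% of all genes were called higher and 2.86% lower. Without kainate or sham NeuN+ replicate 2, 21 and 22 passed, where 9.81% and 9.84% of all genes were called. The 3 higher genes were scaffolds, Homer1 (0.76), Dlgap2 (0.74) and Baiap2 (0.56). No trafficking gene or partner passed, those with the smallest p being Kif17 (0.71, SE 0.53), Cask (-0.60, SE 0.46) and Ptpn5 (0.52) among group means. The 4 lower calcium signalling genes included Nsmf (-0.74), whose product carries NMDA receptor signals to the nucleus, and Camk2g (-0.70). The 5 lower agonist genes included Phgdh (-1.21), the first enzyme of serine synthesis, the transporter gene Slc7a10 (-1.95), whose product moves D-serine and glycine, and Slc1a2 and Slc1a3, which are also among the astrocyte markers. Slc7a10 had 116, 60.8 and 21.05 CPM after kainate and 291 and 126 CPM in sham glia, and its groups did not overlap, as with Grin2c. The kainate effect of none of the 74 differed between the fractions among group means, with Camkk2 nearest at -1.20 (SE 0.50, FDR = 1.00), and with the block the effect of 4 was higher and of 1 lower in neurons than in glia, where 1.94% of all genes were called. In the comparison of NeuN+ with NeuN– nuclei, 49 of the 74 genes were higher in neurons and 9 lower, where 16.8% and 20.4% of all genes were called; all 9 lower ones belonged to the supply and removal of the agonists.

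The genes whose pattern over the 11 libraries was most like that of each subunit were found by Pearson's correlation of log2 CPM, over libraries that share fractions and pools. Grin1 was closest to its antisense gene Grin1os (r = 0.997), with which it shares exonic bases. Grin2a was closest to Ryr2 (0.998), Celsr3 (0.996) and Kalrn (0.996), and Grin2b to Kcnh3 (0.999), Slit1 (0.996) and Tenm2 (0.996). Grin2c was closest to Plcd4 (0.988), Cyp2j9 (0.987) and Gm6145 (0.986). Grin2d was closest to Usp46 (0.993), Grin3a to Axin2 (0.972) and Grin3b to Pml (0.922). No correlation within a fraction was computed for these pairs.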

How the data were processed

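mRNAseq was analysed in 11 libraries of sorted nuclei; 11 bisulfite samples of the series were not used here. The authors amplified polyadenylated RNA with SMART-Seq v4 (no molecular identifiers), trimmed reads with Trim Galore 0.4.3, aligned them to mm10 with Rsubread and deposited raw counts of uniquely mapped reads per GENCODE gene, with no strand setting stated.

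Of 53379 genes, 105 without a symbol were dropped, and 40714 of the remaining 53274 passed edgeR's filterByExpr (minimum count 10, minimum total 15). The study kept fewer genes after its filters, so the FDRs and shares here are over another gene set. Counts were scaled with TMM and fitted by edgeR 4.0.16 (R 4.3.3) with its quasi-likelihood test, as 1 model of 4 group means over the 11 libraries, with Benjamini-Hochberg adjustment and the study's threshold of FDR below 0.25. The study analysed glia and neurons apart. Fitted per cell type, edgeR called 390 genes in neurons and 0 in glia (426 at an unadjusted p under 0.05), against 67 and 41 here (DESeq2 360 and 254). The script was tested on simulated data. CPM per kilobase used the union of GENCODE M21 exons. In neurons the correlations of deviations between same-numbered kainate and sham libraries were 0.643, 0.161 and 0.491 and in glia 0.760 and 0.787. All were above 0.1, so the replicate number was used as a block, although kainate and sham pools of a number hold different mice. The deviations of the 2 sham NeuN– libraries mirror each other, so the 2 glial correlations are not independent. Libraries of different numbers were not compared, so these values cannot show that the likeness is particular to the number. Blocked values stand beside the results they change. DESeq2 1.42.0 served as an alternative. The Grin2b to Grin2a ratio was compared by exact permutation tests.

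The members and gene lists were chosen with earlier results of these data known. All 7 members are named. Of each pathway list, the genes called and the 3 of smallest p in each kainate comparison could be named, as well as markers needed beside a result and the 3 genes of highest correlation with each member.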

Additional observations from a re-analysis of the deposited data

Results flagged for a closer look

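The kainate effect on Grin2c and Grin3a differed between neurons and glia when the difference itself was tested with the replicate number as a block. For Grin2c the effect in neurons minus that in glia was 1.98 on the log2 scale (edgeR, FDR = 0.0047), and for Grin3a it was 0.99 (FDR = 0.13). In the same test 5 of the 8 astrocyte markers (median 1.06) and 3 of the 8 oligodendrocyte precursor markers (median 0.72) were called in the same direction. Without kainate NeuN– replicate 3 the difference of Grin2c was 1.18 (FDR = 0.28), and that of Grin3a was 0.87 (FDR = 0.32). The difference of Grin3a also did not pass without kainate NeuN– replicate 1 (FDR = 0.42), sham NeuN– replicate 1 (FDR = 0.68) or sham NeuN– replicate 3 (FDR = 0.31). Among group means without the block neither difference passed, with 1.47 and 0.91.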

How the results depend on the processing

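Depth limited Grin3b most, with 8 to 94 reads a library, and the 2 sham NeuN– libraries limited all glial values. Where one of them was left out, the remaining library was assumed to vary like the other groups. With the replicate block, and with the block in DESeq2's Wald test, 2 subunits passed in glia and 2 for the difference between fractions, and 2 in glia with the block and RNA input as a covariate. The shares of all genes called were 5.79%, 9.08% and 2.14% in glia in these 3 fits, and 1.94% and 3.23% for the difference in the first 2. Of the 74 pathway genes, the block called 20 in neurons and 12 in glia, and DESeq2's Wald test, a CPM filter and a separate fit per cell type each called 1 in neurons, where they called 0.884%, 0.468% and 1.29% of all genes. For the difference between fractions the block called 5 of the pathway genes, against 0 among group means. The blocked fits with a library left out or RNA input added, and DESeq2 with the block, were chosen after seeing the data. With single libraries left out, blocked or not, the subunits called were 0 to 0 in neurons, 0 to 3 in glia, 0 to 2 for the difference and 5 to 6 between fractions, and the pathway genes called 0 to 23 in neurons and 0 to 22 in glia. Over these fits the share of all genes called ran from 0.0123 to 7.3% in neurons, from 0.00225 to 9.84% in glia, from 0 to 6.53% for the difference and from 27.5 to 59.8% between fractions. The log2 ratio of Grin2b to Grin2a ranged from -0.20 to 0.32 in neurons, so that its direction turned, and from -0.45 to -0.04 in glia.

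These directions turned, none of them called in that comparison among group means. Grin2b in glia passed at -0.77 and -0.78 with the block and kainate or sham NeuN– replicate 3 left out, where 9.75% and 9.18% of all genes were called. In glia, Grin2a was -0.10 with the block, -0.18 in DESeq2 with the block and -0.34 without both low-input libraries. Grin2b was -0.31, -0.39 and -0.54 there, and its difference between fractions 0.063, 0.13 and 0.31, while that of Grin2a was 0.050 without the low-input libraries. Grin3b in glia was -0.000387 with DESeq2's size factors, -0.50 with the block, -0.58 in DESeq2 with the block, -0.43 with the block and RNA input, and -0.49 without the low-input libraries. Grin3a was -0.015 in neurons with no filter and -0.21 between fractions in sham libraries alone. With single libraries left out, values on both sides of 0 were seen in neurons for Grin1 (-0.32 to 0.087), Grin2c (-0.81 to 0.36), Grin2d (-0.044 to 0.28) and Grin3a (-0.14 to 0.28). In glia they were seen for Grin1 (-0.075 to 0.53), Grin2a (-0.67 to 1.31), Grin2b (-0.78 to 0.74), Grin2d (-0.62 to 0.24) and Grin3b (-0.59 to 0.27). The same held for the difference of Grin2a (-1.60 to 0.38), Grin2b (-0.98 to 0.53) and Grin2d (-0.12 to 0.73), and for Grin3a between fractions (-0.073 to 0.53). The cause was not tested.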
